A study of Rattus norvegicus with 12 samples.

Results

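Col1a1, Col1a2, Col3a1 and Sparc were followed in coronary arterioles of ageing rats. They are 4 of the 24600 gene IDs in the deposited table, and were picked by name as fibrillar collagens and a collagen-binding protein. Gene expression was measured by RNA sequencing in 12 libraries of coronary arterioles from female Fischer-344 rats, 4 libraries in each of 3 groups. Young controls were 3 months old and old controls 24 months old, both untreated. The third group, labelled as 24 months old, had been given 10000000 stromal vascular fraction (SVF) cells, the mixed non-fat cells of adipose tissue, by tail vein at 23 months, 4 weeks before the vessels were collected. The labels used here do not describe the donors of these cells. The vessels were under 150 µm in diameter and came from branches of the left anterior descending artery. Each RNA sample pooled at least 5 of them within a group, and nothing says whether a library came from 1 animal or several, so the spread between libraries may be partly technical.

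Fibrillar collagens form the tensile fibres of the vessel wall. Type I collagen is assembled from chains encoded by Col1a1 and Col1a2, type III collagen from chains of Col3a1, and both are made mainly by fibroblasts and, in vessels, by smooth muscle cells. Sparc encodes a secreted calcium-binding glycoprotein that binds collagen outside the cell and takes part in the assembly of its fibres.

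The members were proposed with results of these data known, among them the difference between old and young controls, in which Col3a1 was the single gene that edgeR's quasi-likelihood test called lower (0.008% of the genes tested). That call was lost without young control replicate 1 (edgeR adjusted p = 0.0718) or old control replicate 2 (0.0506). Col1a1 was not called by edgeR (adjusted p = 0.128) but was by DESeq2 (0.00661) and limma voom (0.0337). These values describe how the members came to be chosen and support nothing here. The values of old and of SVF-treated rats against young controls are therefore given as a description, with no test. The pairing of the names with the Ensembl IDs was given with the members and could not be checked, since no table used here pairs these IDs with symbols. For the same reason the levels of cell type markers and of other genes of the collagen pathway are not given, and the labelled tissue was not checked against markers.

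Total counts ranged from 4068021 to 10821485 per library. The libraries with the lowest median rank correlation with the others were old SVF-treated replicate 2 (0.939) and old control replicate 4 (0.945), against a highest value of 0.963. In bulk RNA, fewer cells of a type and less RNA per cell cannot be told apart.

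Of the 4 members, 3 passed the filter on low counts. ENSRNOG00000011292, the ID paired with Col1a2, had a count of 0 in 11 libraries and of 1 in old SVF-treated replicate 3. A count of 0 allows a level of up to 0.268 to 0.768 CPM (a count normalised to library size), depending on the library's depth and covering counting error only. Col1a1, whose product joins that of Col1a2 in type I collagen, had 1602 to 6541 counts in the same libraries. The values of this ID are thus at odds with those of Col1a1 if the name given to it is right. Whether the name is wrong, or reads of Col1a2 were left out or assigned elsewhere, was not tested. It had no usable value and enters no comparison below.

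Col1a1 (ENSRNOG00000003897) encodes the main chain of type I collagen. Its levels in young controls 1 to 4 were 772, 396, 480.2 and 517 CPM, scaled for library size and composition by the TMM method. In old controls they were 208, 259, 312 and 368 CPM, and in SVF-treated rats 331, 335, 249.7 and 365 CPM. All 8 libraries of old rats lay below the lowest young library, and the 2 old groups overlapped. The group means were 541 ± 162, 287 ± 68.9 and 320.2 ± 49.4 CPM (SD, n = 4). The log2 fold change from young controls was -0.92 (SE 0.20) in old controls and -0.76 (SE 0.20) in SVF-treated rats. Young control replicate 1 stood well above the other young libraries, and without it these values were -0.69 and -0.54.

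Col3a1 (ENSRNOG00000003357) encodes the chain of type III collagen, which is abundant in distensible tissues such as vessel walls. Its levels in young controls 1 to 4 were 2043, 1682, 1607 and 1712 CPM. In old controls they were 723, 886, 947 and 964 CPM, and in SVF-treated rats 901, 959, 851 and 1282 CPM. Every library of old rats was again below every young library. The nearest was SVF-treated replicate 4, the highest of the 8. Group means were 1761 ± 193, 880.2 ± 109.7 and 998 ± 194 CPM (SD, n = 4), with log2 fold changes from young controls of -1.0 (SE 0.16) in old controls and -0.82 (SE 0.16) in SVF-treated rats. The level in old controls was thus 0.50 of that in young controls.

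Sparc (ENSRNOG00000012840) differed less. Young controls 1 to 4 were at 3667, 2584, 2951 and 3049.9 CPM. Old controls were at 2044, 2239, 2529 and 2588 CPM, and SVF-treated rats at 2299, 2365, 2074 and 2603 CPM. The groups touched in 3 libraries: young control replicate 2 lay just below the fourth library of each old group. Group means were 3063 ± 449.6, 2350.1 ± 255 and 2335 ± 218 CPM (SD, n = 4), and the log2 fold change from young controls was -0.38 (SE 0.16) in old controls and -0.39 (SE 0.16) in SVF-treated rats.

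**Figure D1:**
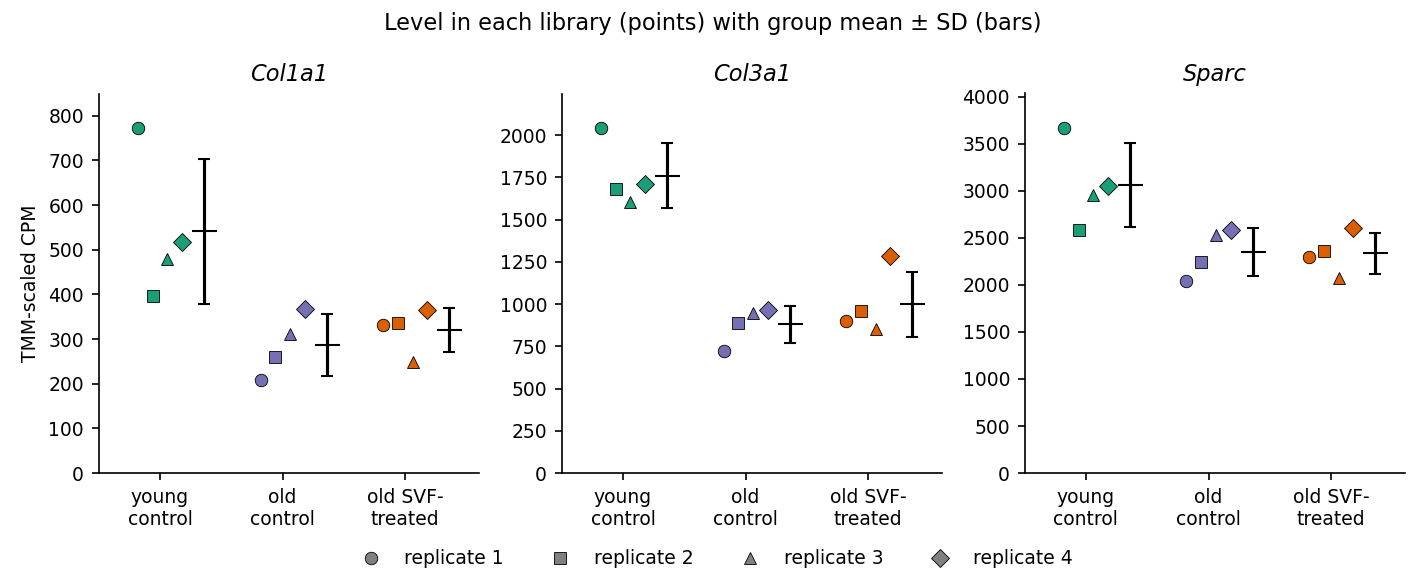
TMM-scaled CPM of Col1a1, Col3a1 and Sparc in each of the 12 libraries (points, shaped by replicate number), with the group mean ± SD (bars) and axes from 0. All 8 libraries of old rats lie below all 4 young libraries for Col1a1 and Col3a1, while for Sparc young control replicate 2 (2584 CPM) lies within the range of the old groups.

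For Col1a1 and Col3a1, the old control libraries did not overlap the young ones. Of the 12496 genes tested, 1.62% lay wholly lower in old controls, 2.22% wholly lower in SVF-treated rats than in young controls, and 0.336% had all 8 old libraries below all young ones. These shares are background only, since the members were chosen with this contrast in view. The median log2 fold change of all tested genes from young to old controls was -0.0091. Of all tested genes, 351 (2.81%) had a lower fold change in old controls than Col3a1, 417 (3.34%) than Col1a1 and 1709 (13.7%) than Sparc. Among the 909 genes with a mean of at least 200 CPM, 1 had a lower fold change in old controls than Col3a1, 3 had a lower one than Col1a1 (Col3a1 among them), and 29 a lower one than Sparc. These ranks too come from the contrast behind the choice of members.

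The order of the group means was young control, old SVF-treated, old control for both collagens. For Sparc the old groups changed places, with means that differed by far less than their SDs. Only the step from young controls to the old groups left the libraries of the collagens apart.

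**Figure D2:**
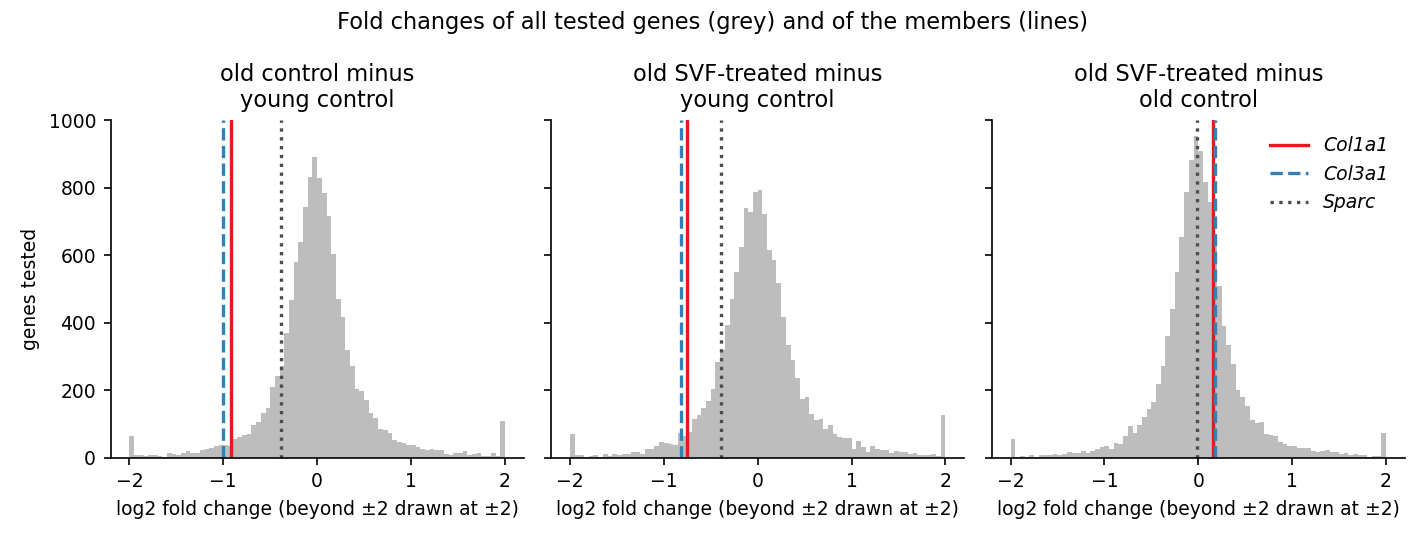
Number of tested genes (grey, vertical axis) by log2 fold change (horizontal axis) in the 3 comparisons, with Col1a1 (solid red), Col3a1 (dashed blue) and Sparc (dotted grey) as lines. Both collagens lie in the lower tail against young controls (-0.92 and -1.0 in old controls). When SVF-treated rats are set against old controls they lie above the centre (0.16 and 0.18), with 71.4% and 73.7% of all tested genes lower.

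Old rats with and without SVF cells were compared next. No member passed the test (0 of 3 tested, edgeR quasi-likelihood test, adjusted p = 0.999 for each), and 0% of all tested genes did. DESeq2 and limma voom called no member either, and none of the 3 had an unadjusted p under 0.05 by any of these tools. Over all tested genes the counts at an unadjusted p under 0.05 were 367 by edgeR, 421 by DESeq2 and 577 by limma voom. The log2 fold change of Col3a1 was 0.18 (SE 0.16, 95% interval -0.15 to 0.51) and that of Col1a1 was 0.16 (SE 0.20, 95% interval -0.25 to 0.56). Sparc was at -0.0092 (SE 0.16, 95% interval -0.33 to 0.32). As folds, the intervals ran from 0.901 to 1.43 for Col3a1, 0.842 to 1.48 for Col1a1 and 0.793 to 1.24 for Sparc. Among the 909 genes with a mean of at least 200 CPM, the median log2 fold change was -0.025. Of these, 833 had a lower value than Col1a1, 854 a lower one than Col3a1 and 503 a lower one than Sparc. The old controls also entered the difference from young controls behind the choice of members, so chance low values in them would favour a rise in this comparison. Without the libraries of lowest correlation, old SVF-treated replicate 2 and old control replicate 4, the log2 fold changes were 0.28 for Col1a1, 0.25 for Col3a1 and 0.037 for Sparc, and none passed (edgeR adjusted p = 0.9997). Single libraries moved the values as far the other way. Col3a1 was at 0.037 without SVF-treated replicate 4 and at 0.097 without old control replicate 1, and Col1a1 was at 0.089 and 0.031. Col1a1 was at 0.30 without old control replicate 4 and at 0.26 without SVF-treated replicate 3. Sparc lay between -0.071 and 0.042 whichever library was left out. Without the same libraries, old controls differed from young controls by -1.06, -1.05 and -0.43, and SVF-treated rats by -0.78, -0.80 and -0.39.

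Counting error was small for these members. The fewest counts behind a value were 1602, for Col1a1 in old control replicate 1, which gives a Poisson error of 2.50% of the value. The spread between libraries was wider. The coefficient of variation of Col1a1 was 29.9%, 24.0% and 15.4% in young controls, old controls and SVF-treated rats. The corresponding values were 10.95%, 12.5% and 19.4% for Col3a1 and 14.7%, 10.8% and 9.32% for Sparc. For the 909 genes with a mean of at least 200 CPM the medians were 13.0%, 15.1% and 13.3%, so that Col1a1 varied more than the median abundant gene in each group.

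Ratios between members of the same library do not depend on the scaling between libraries. They are ratios of counts, not corrected for gene length, and serve only to compare libraries. The count of Col3a1 per count of Sparc was 0.557, 0.651, 0.544 and 0.561 in young controls 1 to 4. It was 0.354, 0.396, 0.375 and 0.372 in old controls and 0.392, 0.406, 0.410 and 0.492 in SVF-treated rats. All old libraries were thus below all young ones, and old control replicate 2 overlapped the SVF-treated group.

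The count of Col1a1 per count of Sparc was 0.211, 0.153, 0.163 and 0.169 in young controls. It was 0.102, 0.116, 0.124 and 0.142 in the untreated old rats, and 0.144, 0.142, 0.120 and 0.140 in SVF-treated rats. The young libraries were again the highest, by a narrow margin over SVF-treated replicate 1. On the log2 scale, old controls differed from young controls by -0.63 for Col3a1 to Sparc and by -0.53 for Col1a1 to Sparc. The differences of SVF-treated rats from young controls were -0.45 and -0.34. As background, 0.2% of the other tested genes had a ratio to Sparc that lay wholly lower in old than in young controls, and 0.28% had one wholly lower in SVF-treated rats. Sparc was itself lower in old rats, so a lower ratio needs a larger fall than that of Sparc, which keeps these shares small. They are background only, since the members were chosen with the difference between old and young controls in view.

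The ratio of the collagens to each other did not separate the groups. The count of Col1a1 per count of Col3a1 spanned 0.236 to 0.378 in young controls, 0.287 to 0.382 in untreated old rats and 0.285 to 0.367 after SVF treatment. The collagen counts were thus lower relative to Sparc in old rats, with overlapping ratios between the collagens themselves.

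SVF-treated and old control libraries were compared in the 3 ratios by two-sided exact permutation tests over 70 splits, which can reach no p below 0.0286. The log2 ratio of Col3a1 to Sparc was 0.18 higher in SVF-treated rats (exact permutation p = 0.0571, Benjamini-Hochberg adjusted over the 3 ratios 0.171). That of Col1a1 to Sparc was also 0.18 higher (exact permutation p = 0.229, adjusted 0.343), and that of Col1a1 to Col3a1 differed by 0.0046 (exact permutation p = 0.971, adjusted 0.971). None passed the threshold. After adjustment over the 3 ratios, a single ratio could not have passed alone, even at the smallest p the test can give. That no ratio passed therefore says little about whether 1 of them differed. The libraries of SVF-treated and old control rats overlapped in each of the 3 ratios.

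**Figure D3:**
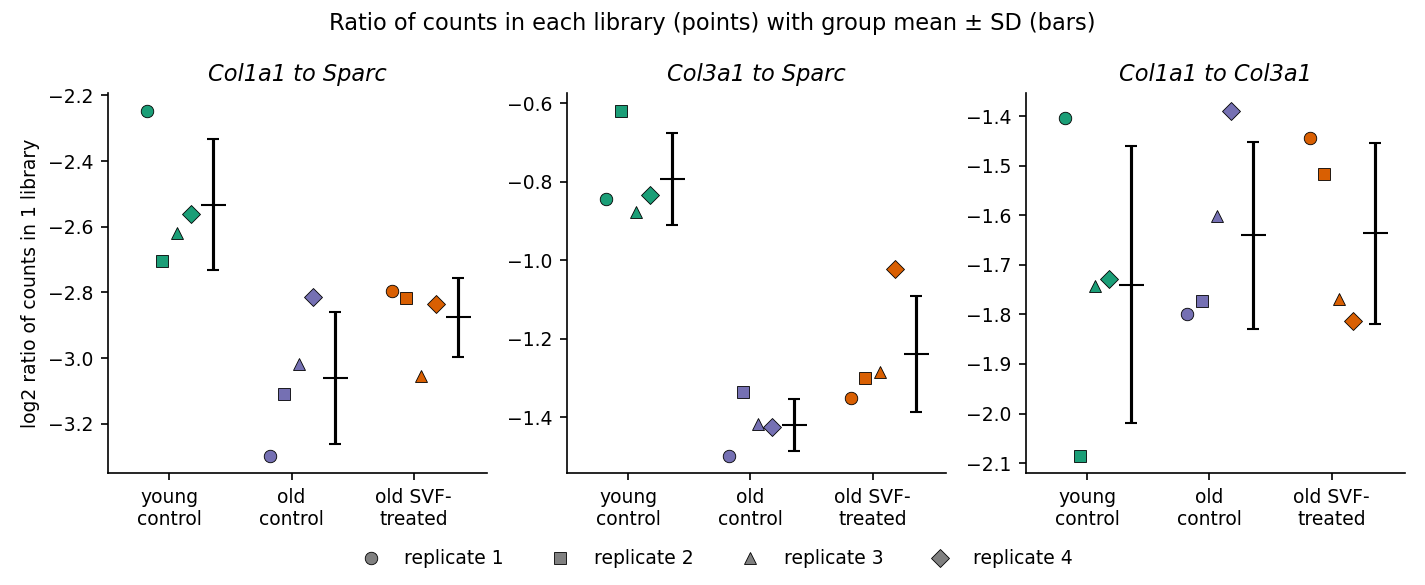
Log2 ratio of counts in each library (points, shaped by replicate number) with the group mean ± SD (bars), for Col1a1 to Sparc, Col3a1 to Sparc and Col1a1 to Col3a1; the vertical axes differ and do not start at 0. The young libraries lie above all old ones in both ratios to Sparc and overlap them in the ratio of the collagens.

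Within each group, the 3 members varied together from library to library, and in 8 of the 12 libraries all 3 lay on the same side of their group means. In old controls the order from high to low was replicate 4, 3, 2, 1 for each of them, and in SVF-treated rats it was 4, 2, 1, 3 for each. Young control replicate 1 was the highest young library for all 3 and replicate 4 the second. Col1a1 had the widest swings, from -0.43 to 0.56 on the log2 scale around its group means, against -0.23 to 0.27 for Sparc.

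After the group means were removed, Col1a1 and Sparc had a Pearson r of 0.98 and a Spearman rho of 0.97 over the 12 libraries. For both, the p of the two-sided exact permutation test within groups was 7.23e-05, the smallest that 13824 permutations can give. Col3a1 and Sparc had r = 0.83 (exact permutation p = 0.000723) and rho = 0.83 (p = 0.000723). Col1a1 and Col3a1 had r = 0.78 (exact permutation p = 0.0021) and rho = 0.84 (p = 0.000217). Adjusted over these 3 pairs by the Benjamini-Hochberg method, the permutation p-values of r were 0.000217, 0.00109 and 0.0021, and those of rho 0.000217, 0.000723 and 0.000326. Without the 2 libraries farthest from the median of the first-named member, r was 0.96, 0.77 and 0.67 over 10 libraries. The relation between members therefore did not rest on these libraries, which were young control replicate 1 in each case, with old control replicate 1 or SVF-treated replicate 4.

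**Figure D4:**
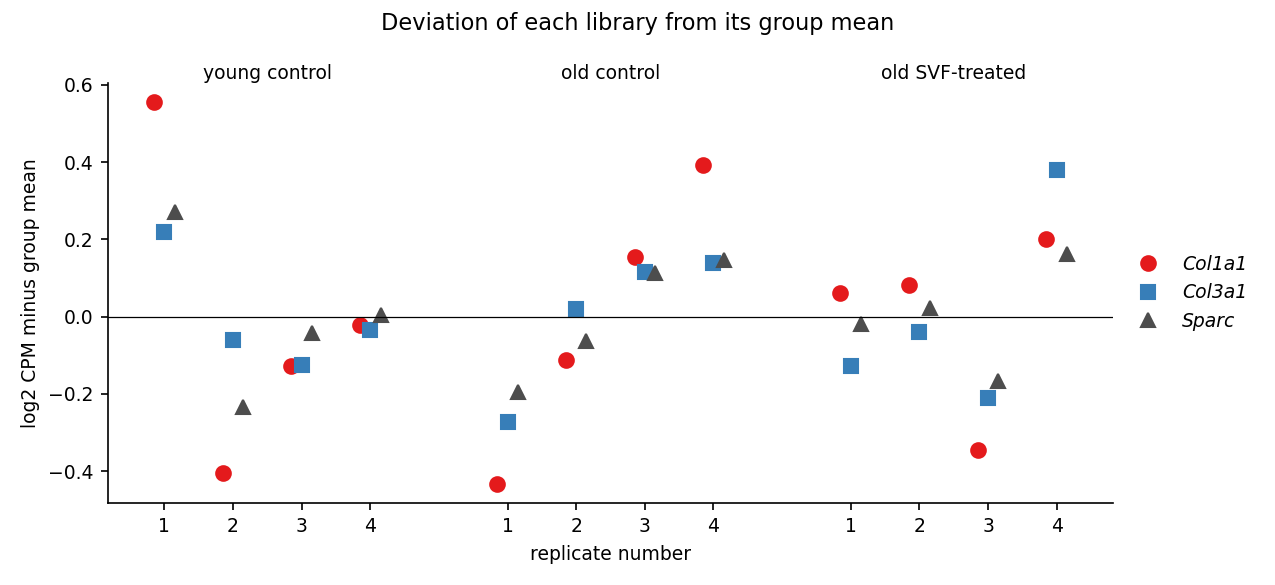
Log2 CPM minus the group mean (vertical axis) of Col1a1, Col3a1 and Sparc in each library, by group and replicate number (horizontal axis; the numbers carry no order). The 3 members deviate to the same side in 8 of 12 libraries, and Col1a1 has the widest range, from -0.43 to 0.56.

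Depth and dropout moved less closely with the members. With the log2 total count, the within-group r was 0.49 for Col1a1, 0.21 for Col3a1 and 0.44 for Sparc (rho 0.43, 0.16 and 0.41). With the number of tested genes at a count of 0, r was 0.095, 0.29 and 0.050 (rho 0.091, 0.31 and 0.035). Over these 6 relations the smallest unadjusted exact permutation p was 0.181 for r and 0.222 for rho, and the smallest adjusted p was 0.776 and 0.782. With 12 libraries such tests can miss a moderate relation, so these values do not show that depth was unrelated to the members. Without the 2 libraries farthest from the median, r with the total count was 0.38, 0.013 and 0.34, and r with the number of genes at 0 was 0.11, 0.30 and 0.020.

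The within-group pattern was also compared with that of all other tested genes with a mean of at least 10 CPM. Among these 8933 genes, none had a higher r with Col1a1 than Sparc had, and none had a higher r with Sparc than Col1a1 had. Sparc ranked 16 by its r with Col3a1, and Col1a1 ranked 40. Col3a1 ranked 29 by its r with Sparc and 63 by its r with Col1a1. The median r of the genes with Col1a1 was 0.013. Col1a1 and Sparc kept first place with each other with RLE size factors and with library totals in place of TMM. The libraries are shared by all these values, which are a description over 12 points.

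Of the 8931 other genes, 32 had an r over 0.8 with the mean profile of the 3 members. The 8 closest, at r = 0.887 to 0.931, are not named because no symbols could be paired with their IDs. Their log2 fold changes from young to old controls ran from -0.75 to 0.50, with a median of -0.26 against -0.014 for all 8931. Of the 8, 5 were lower in old controls, where the median of all 8931 was also just below 0. Among these 5, 2 had no overlap with the young libraries, and 1.62% of all tested genes lay wholly lower. Of the 3 that were not lower, none had libraries wholly above the young ones. These counts were not tested.

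The promoter sequence of Sparc is shown because it is the only member with usable counts that the RefSeq promoter table (build GRCr8) holds. Col1a1 and Col3a1 had no entry. The sequence is the 250 bases before the annotated start, at chr10:40038817-40039066 on the minus strand, 5′ to 3′ on the gene's strand. Capitals mark matches on either strand to TATAAA, to CCAAT, to GGGCGG (the core of a GC box) and to GGAGGAGG, a purine repeat that was chosen after this sequence had been seen.
Sparc: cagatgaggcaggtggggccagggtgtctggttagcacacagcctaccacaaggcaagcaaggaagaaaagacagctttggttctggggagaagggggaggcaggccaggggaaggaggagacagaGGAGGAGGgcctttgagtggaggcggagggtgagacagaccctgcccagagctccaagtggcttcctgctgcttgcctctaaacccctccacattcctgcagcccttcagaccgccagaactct

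The window held GGAGGAGG on the gene's strand, 124 to 117 bases before the start, and none of the other motifs. Of all 33469 promoters in the table, 6.96% held GGAGGAGG in the same window, 12.9% TATAAA, 34.0% CCAAT and 30.5% GGGCGG. The share of G and C was 60.0%, against a median of 51.2%.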

How the data were processed

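The authors deposited raw counts per Ensembl gene ID, with a column for each library. FastQC 0.10.1, HTSeq 0.10.0 and the genome build rn6 are named by the submitters' processing notes. The aligner, the annotation release and the strandedness of counting are not given in the sources used here. Overlapping or antisense genes may therefore share reads. Per the labels' protocols, polyadenylated RNA was made into libraries with a Universal Plus mRNA-Seq kit.

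Genes were kept by filterByExpr (minimum count 10, minimum total 15), which left 12496 of 24600. Counts were scaled by TMM and fitted with the group as the only term over the 12 libraries by edgeR 4.0.16 in R 4.3.3, with robust quasi-likelihood tests and Benjamini-Hochberg adjustment over all 12496 genes within a comparison. The threshold for a call was an adjusted p of 0.05. Log2 CPM had a prior count of 2, and ratios of counts an offset. Replicate numbers were not used as a block. No libraries of a group agreed within sampling noise (lowest chi-square per degree of freedom 16.2). The fit and the ranking of genes by pattern were also run on simulated data, with noise drawn independently for each gene. The outcome of these runs is not given here, and they are no support for the results above.

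The members, the gene lists and the alternatives were chosen with earlier results of these data known. The alternatives were RLE size factors, library totals, no filter, a mean of at least 5 CPM, DESeq2 1.42.0, voom with quality weights in limma 3.58.1, a fit of the compared groups alone, a replicate block, another prior count or offset, and leaving out libraries. The named genes were to be the 4 members, called or largest-changing genes of the lists on collagens, their processing and their regulators, and the 8 genes closest in pattern. Without symbols, the lists and the cell type markers could not be matched, and only the members are named. The ratio and correlation of pairs with Col1a2 could not be computed.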

Additional observations from a re-analysis of the deposited data

Results flagged for a closer look

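The log2 ratio of Col1a1 to Sparc stood apart in old SVF-treated replicate 3, at -3.05, while the next lowest SVF-treated library was at -2.84. The distance between these libraries, as a share of the whole range in the group, was 0.845, more than Dixon's 95% critical value for 4 samples. By chance about 1 in 20 groups exceeds it, and 18 sets of values were looked at. The cause was not tested.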

How the results depend on the processing

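No alternative moved a comparison of SVF-treated with old controls, or a within-group correlation, across the threshold. For the ratios, no single ratio could have crossed it alone, with all libraries or with 1 left out. The runs with 1 library left out therefore say little about stability. Without SVF-treated replicate 1, Col3a1 to Sparc reached an adjusted exact permutation p of 0.0857, with no overlap of the old groups. The differences from young controls kept their direction under each alternative. They moved by less than the pooled SD between libraries of a group (0.34 log2 for Col1a1, 0.21 for Col3a1 and 0.17 for Sparc). Leaving out 1 of the 4 libraries of a group can hardly move its mean that far, so this is a weak check. The edgeR call of Col3a1 behind the choice of members did not hold throughout (adjusted p = 0.0718 without young control replicate 1 and 0.0506 without old control replicate 2). In the same contrast, Col1a1 passed with DESeq2 (adjusted p = 0.00661) and limma voom (0.0337). These tools called 30 and 17 genes there in either direction, against 5 by edgeR, so its calls are no check of the result. The difference of old from young controls ranged from -1.06 to -0.69 for Col1a1, -1.05 to -0.91 for Col3a1 and -0.46 to -0.28 for Sparc, and that of SVF-treated from old controls from 0.024 to 0.30, 0.037 to 0.25 and -0.078 to 0.042, with adjusted p from 0.963 upward. Without young control replicate 3 and old control replicate 1 together, old controls differed from young controls by -0.82, -0.94 and -0.32. The within-group r ranged from 0.961 to 0.985 for Col1a1 and Sparc, 0.782 to 0.913 for Col3a1 and Sparc and 0.703 to 0.894 for Col1a1 and Col3a1. The ratio and correlation results without the libraries of lowest correlation were added after the data were seen, and the ratio tests on the remaining 3 against 3 libraries are too small to pass the threshold, so they say nothing about stability.

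With the replicate block, old controls differed from young controls by -0.90, -1.01 and -0.38 for Col1a1, Col3a1 and Sparc, and the block changed no call of these members. Between groups, 12 library pairs of the same number had r from -0.0056 to 0.090, and others from -0.114 to 0.0956. Replicate 1 pairs were at 0.050 to 0.090 and replicate 4 pairs at -0.0043 to 0.013. Of 12 libraries, 5 correlated best with their own number, and pairing was not tested. Alternatives for the gene lists were not run, because no symbols could be paired with the IDs. With 4 libraries a group, the spread between libraries rather than depth limits the precision for these members.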
